A study of Mus musculus with 70 samples.

Results

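The small Maf genes Maff, Mafg and Mafk, their large relative Maf, their partners Bach1, Bach2 and Nfe2l2, and the Fos-like genes Fosl1 and Fosl2 are described here in mice that lack one isoform of Capicua. These 9 genes were taken by symbol from the 50789 genes of the count table, after versioned Ensembl identifiers were matched to mouse gene symbols. The set was assembled around Maff, for the size of its change in the cerebellum of long isoform knockouts, so every value that involves those libraries is a description and carries no test. The same holds for values of Maff itself against WT cerebellum, the other arm of that change. Capicua is a DNA-binding repressor encoded by Cic, which is made as a long and a short protein from alternative promoters and is switched off by signalling through ERK. The samples were Cic-S-KO mice, which lack the short isoform, Cic-L-KO mice, which lack the long isoform, and WT mice pooled from the littermates of both lines. Lung was taken at P6, postnatal day 6, and cortex and cerebellum at an age of 12 weeks. Bulk RNA-seq of 70 tissue samples gave 9 groups of 8, except that the Cic-S-KO cortex and cerebellum groups had 7 each. The labels do not say which line each WT mouse came from, and both knockouts were compared with the same WT samples. All lung libraries were labelled batch 1 and all brain libraries batch 2, so organ, age and batch cannot be told apart, and no test was made between lung and brain.

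All 9 genes encode basic leucine zipper proteins, which bind DNA as pairs held together along a zipper of leucines. Small Maf proteins lack an activation domain of their own, so the outcome depends on the partner: with NRF2, the product of Nfe2l2, they activate antioxidant and detoxification genes through the antioxidant response element, and with BACH1 or BACH2 they repress many of the same elements, among them that of the heme oxygenase gene Hmox1. Maf encodes a large family member with an activation domain, known for its work in lens, macrophages and some lymphocytes and interneurons. FOSL1 and FOSL2 pair with JUN proteins into AP-1 and are induced by ERK signalling.

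The promoter sequences are shown because 2 of the 9 genes carry in them an octamer of the kind that Capicua binds. Stretches of 158 bases, from 150 bases before an annotated start to 8 bases after it, were read from the RefSeq promoter table for GRCm38.p6, and capitals mark the octamer:
Maff, chr15:79347370-79347527, plus strand: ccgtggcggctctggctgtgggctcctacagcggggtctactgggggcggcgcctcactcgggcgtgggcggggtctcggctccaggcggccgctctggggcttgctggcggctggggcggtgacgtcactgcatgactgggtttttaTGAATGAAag
Mafg, chr11:120633540-120633697, minus strand: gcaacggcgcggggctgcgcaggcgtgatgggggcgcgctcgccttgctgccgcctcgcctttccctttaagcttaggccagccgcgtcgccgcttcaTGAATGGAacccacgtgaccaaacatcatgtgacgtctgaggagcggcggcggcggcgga
In Maff the octamer TGAATGAA lay from base -2 to base 6 around 1 of 3 annotated starts, and in Mafg the octamer TGAATGGA lay from base -52 to base -45. Both were on the strand of the gene. The search covered TGAATGAA, TGAATGGA, TCAATGAA and TCAATGGA on both strands in windows of 300 bases, 250 before and 50 after each start. Any of the 4 octamers was present in 3.84% of all 32851 windows of the table. Windows were given for 7 of the 9 genes, with 3 for Maff and 1 for each other gene, and those of Mafk, Bach1, Bach2, Nfe2l2 and Fosl2 held none of these letters. The antioxidant response element core TGANNNNGC was found in windows of Maff, Mafg, Mafk, Bach2 and Nfe2l2, and in 41.3% of all windows. The AP-1 site TGANTCA was in none of these windows and in 7.81% of all. The Bach2 window sits at chr4:32417185-32417484, inside the gene rather than at its first start. A match is a description of letters and not of binding.

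The genes lie apart in the genome, so that no pair of members shares a locus. In GRCm38, Maff spans chr15:79346621-79359076, Mafg chr11:120625117-120633600, Mafk chr5:139791513-139802653 and Maf chr8:115682942-115707794. Bach1 spans chr16:87698945-87733346, Bach2 chr4:32238804-32586108, Nfe2l2 chr2:75675513-75704641, Fosl1 chr19:5447547-5455946 and Fosl2 chr5:32135801-32157842. Counting by strand is not given in the sources used here, which bears on members whose exons overlap another gene. Fosl1 overlaps Ccdc85b on the opposite strand, which had a median of 70.4 CPM against 4.37 to 17.5 CPM for Fosl1, so reads of the 2 genes may not be told apart. Mafg shares exon bases with Sirt7 on the same strand, at a median of 30.7 CPM, and Mafk overlaps Tmem184a on the opposite strand, at 0.721 CPM.

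Total counts per library ran from 17798655 to 35523037. Values below are CPM, that is counts scaled to library size, after TMM normalisation within each organ. A log2 fold change (log2FC) comes with its standard error (SE) and an adjusted p-value from edgeR's quasi-likelihood test, corrected by Benjamini and Hochberg's method over all genes tested, with a threshold of 0.05. All 9 genes were kept by the filter on low counts in each organ. Cic itself was read first, and its gene-level count does not separate the isoforms and so checks neither knockout. Its mean was 139 ± 11.3 CPM in WT lung, 172 ± 10.5 in Cic-S-KO lung and 135 ± 5.62 for Cic-L-KO (SD, n = 8 each). In cortex the mean was 162 ± 8.62 CPM in WT, 251 ± 7.64 in Cic-S-KO (n = 7) and 298 ± 17.0 in Cic-L-KO (SD), with no overlap of either knockout with WT. In cerebellum the WT, Cic-S-KO and Cic-L-KO means were 192, 213 and 212 CPM, and both knockouts overlapped WT. Tissue labels matched their markers: the sum of 5 alveolar type 2 markers was at least 15455 CPM in lung and at most 101 CPM in brain, and that of 5 granule neuron markers at least 2751 CPM in cerebellum and at most 29.6 CPM in cortex.

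Loss of the long isoform was accompanied by a higher Maff level in lung and cortex, and no rise was called with loss of the short isoform. MAFF is the small Maf protein best known as an early response to cytokines and stress. In lung, Maff ran from 20.5 CPM through a median of 41.4 to 49.3 in WT, from 21.8 through 32.8 to 48.8 in Cic-S-KO, and from 65.4 through 82.2 to 106 in Cic-L-KO. Each of the 8 Cic-L-KO lungs stood above each WT and each Cic-S-KO lung, while the WT and Cic-S-KO ranges lay on top of each other. The lung log2FC was 1.15 (SE 0.20, adjusted p = 0.00139), a 2.22-fold rise, for Cic-L-KO against WT, and -0.06 (SE 0.20, adjusted p = 0.865) for Cic-S-KO, whose 95% interval ran from -0.47 to 0.35. Compared directly, Cic-S-KO lung was lower than Cic-L-KO lung by a log2FC of -1.21 (SE 0.20, adjusted p = 0.000335).

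In cortex, Maff was a rare transcript, with 25 to 83 reads per library in WT and Cic-S-KO. WT cortex ran from 1.14 CPM through 1.98 to 3.07, Cic-S-KO cortex from 1.00 through 1.24 to 2.73, and Cic-L-KO cortex from 6.63 through 8.91 to 10.6. All 8 Cic-L-KO cortices again stood above both other groups. The log2FC was 2.10 (SE 0.18, adjusted p = 3.49e-10), or 4.29-fold, in Cic-L-KO and -0.40 (SE 0.21, adjusted p = 0.262) in Cic-S-KO, with a 95% interval from -0.83 to 0.03. The knockouts differed by -2.50 (SE 0.20, adjusted p = 5.2e-11) for Cic-S-KO against Cic-L-KO.

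In cerebellum, whose Cic-L-KO libraries chose the set, Maff ran from 0.925 CPM through 1.41 to 1.73 in WT and from 5.67 through 8.18 to 9.24 in Cic-L-KO, with a log2FC of 2.51 (SE 0.18). The Cic-S-KO cerebellum ran from 0.711 through 1.06 to 2.56 CPM, and its log2FC against WT was -0.13 (SE 0.20), as a description. Maff counts there were 16 to 52 reads in Cic-S-KO and 22 to 46 in WT. The difference of the Cic-L-KO effects, cortex minus cerebellum, was -0.41 (SE 0.26) on the log2 scale, as a description from a fit that left the regions unpaired. Cortex and cerebellum libraries of 1 genotype and number varied together, so the cortex values are not fully separate from the libraries used to choose the set.

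**Figure D1:**
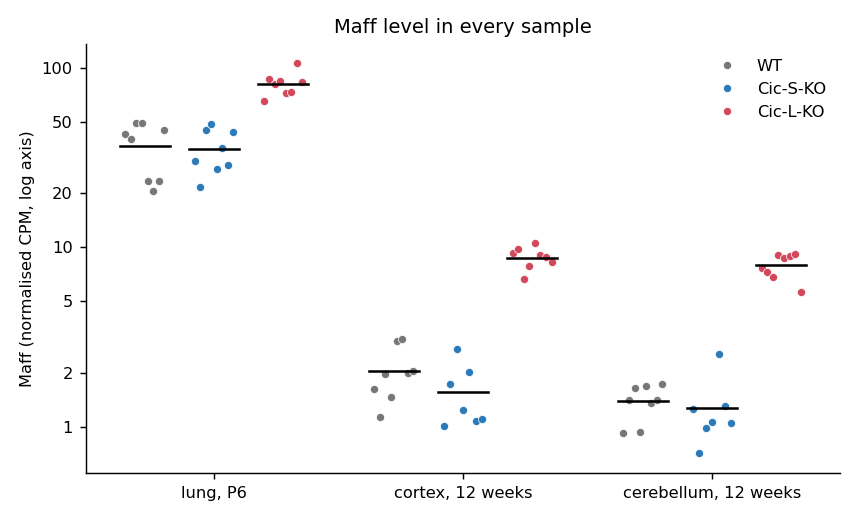
Normalised CPM of Maff on a log axis, with 1 point per sample, grouped by organ and coloured by genotype; black lines mark group means. The Cic-L-KO samples lie above every WT and Cic-S-KO sample of the same organ, and lung WT samples (20.5 to 49.3 CPM) lie above all brain samples.

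MAFG and MAFK are the more broadly expressed small Maf proteins, and their values are given in turn. Mafg ran from 103 CPM through 108 to 122 in WT cortex, from 94.7 through 103 to 126 in Cic-S-KO cortex, and from 142 through 154 to 158 in Cic-L-KO cortex. The Cic-L-KO cortices did not overlap either other group, with a log2FC of 0.46 (SE 0.050, adjusted p = 1.09e-08) against WT, and Cic-S-KO cortex differed from them by -0.49 (SE 0.052, adjusted p = 6.86e-09). In cerebellum Mafg ran from 75.1 through 90.5 to 106 CPM in WT and from 101 through 110 to 117 in Cic-L-KO, and 7 of 8 Cic-L-KO samples stood above all WT; the log2FC was 0.30 (SE 0.079), given without a test. Cic-S-KO cerebellum ran from 63.8 through 71.3 to 98.8 CPM, and its log2FC of -0.21 (SE 0.083) did not pass (adjusted p = 0.113). Without Cic-S-KO replicate 5 that difference was -0.28 and passed (adjusted p = 0.0291). In lung, Mafg means lay between 77.7 and 84.4 CPM in the 3 groups, and no contrast passed. Mafk ran from 43.3 through 64.2 to 72.1 CPM in WT lung and from 62.9 through 76.0 to 90.1 in Cic-L-KO lung, with 5 of 8 above all WT. Its lung log2FC of 0.31 (SE 0.12) did not pass (adjusted p = 0.133). In cortex Mafk had a log2FC of 0.03 (SE 0.075, 95% interval from -0.12 to 0.18, adjusted p = 0.767) in Cic-L-KO.

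The small Maf proteins stand in for each other as partners, so their levels were also summed per length of transcript, as CPM per kilobase of exon. In WT lung the 3 genes were near parity, with Maff at 31.7% ± 5.68, Mafg at 32.6% ± 6.17 and Mafk at 35.7% ± 1.92 of the sum (SD, n = 8). In WT cortex and cerebellum Maff made up only 3.34% ± 0.938 and 2.86% ± 0.660 of the sum, which was mostly Mafg. The summed level went from 43.5 ± 7.88 CPM per kilobase in WT lung to 65.6 ± 6.68 in Cic-L-KO lung, where the Maff share was 47.7% ± 2.38. In cortex the sum was 23.2 ± 1.37 in WT and 33.2 ± 1.43 in Cic-L-KO, and the Maff share 10.2% ± 1.07 in the knockout. In cerebellum the sum was 18.7 ± 1.60 in WT and 25.1 ± 1.24 in Cic-L-KO, with a Maff share of 12.2% ± 1.53. The lowest Cic-L-KO sum stood above the highest WT sum in all 3 organs. Since Maff was chosen for its rise, these sums are descriptions. Cic-S-KO sums were 44.0 ± 6.92 in lung, 22.9 ± 2.29 in cortex and 16.7 ± 2.63 in cerebellum, each overlapping WT.

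**Figure D2:**
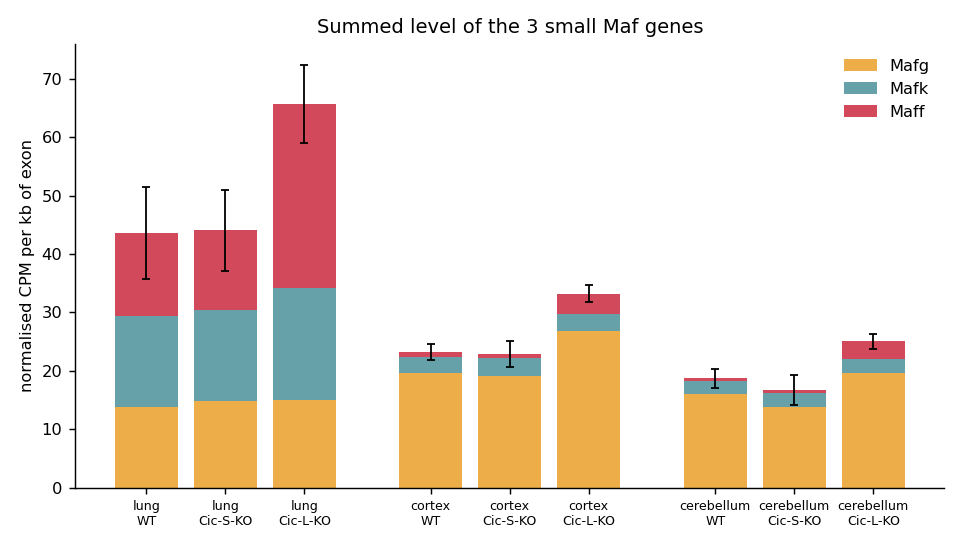
Stacked bars of the mean level of Mafg, Mafk and Maff, in normalised CPM per kilobase of exon, in the 9 groups; the error bar is the SD of the sum over samples (n = 8, or 7 in Cic-S-KO brain). The Maff segment of the Cic-L-KO bars is larger than in WT in each organ, and the lung sum goes from 43.5 in WT to 65.6.

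Transcripts of Bach1 and Bach2, which encode the repressive partners, were higher in Cic-L-KO cortex. BACH1 is the heme-sensing repressor of Hmox1 and related genes, and BACH2 is best known from B and T lymphocytes. Bach1 ran from 17.6 CPM through 18.7 to 20.3 in WT cortex, from 15.8 through 17.6 to 18.7 in Cic-S-KO, and from 25.2 through 27.5 to 32.4 in Cic-L-KO, where no sample overlapped the other groups. Its log2FC was 0.56 (SE 0.052, adjusted p = 5.13e-10) in Cic-L-KO and -0.09 (SE 0.055, adjusted p = 0.341) in Cic-S-KO. Bach2 ran from 8.75 through 10.8 to 15.5 CPM in WT cortex, from 8.55 through 9.34 to 11.3 in Cic-S-KO, and from 27.0 through 29.4 to 35.6 in Cic-L-KO, again apart from both. Its log2FC was 1.43 (SE 0.096, adjusted p = 1.81e-12), a 2.7-fold rise that was the next largest among the 9 genes after Maff. The direct contrast of Cic-S-KO with Cic-L-KO cortex gave -0.65 (SE 0.054, adjusted p = 5.3e-11) for Bach1 and -1.67 (SE 0.10, adjusted p = 2.47e-13) for Bach2.

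The cortical rise of both Bach genes was not matched in the cerebellum, where Cic-L-KO values overlapped WT. Bach2 ran from 8.50 through 12.6 to 20.7 CPM in WT cerebellum and from 11.0 through 16.0 to 19.2 in Cic-L-KO, with a log2FC of 0.23 (SE 0.16). Bach1 had a cerebellar log2FC of 0.08 (SE 0.050). The difference of the Cic-L-KO effects, cortex minus cerebellum, was 0.48 (SE 0.072) for Bach1 and 1.21 (SE 0.20) for Bach2, in the unpaired fit. It includes the libraries used to choose the set and is given without a test. In lung, Bach2 ran from 36.1 through 55.8 to 62.6 CPM in WT, from 41.4 through 47.2 to 59.4 in Cic-S-KO, and from 52.5 through 66.7 to 73.3 in Cic-L-KO. The Cic-S-KO lungs were lower than the Cic-L-KO lungs (log2FC -0.41, SE 0.10, adjusted p = 0.00947), whereas Cic-L-KO against WT was 0.31 (SE 0.10, adjusted p = 0.0752). That call turned on WT replicate 3, without which it was 0.35 (adjusted p = 0.0483), and on the tool, since DESeq2 gave an adjusted p of 0.0399. Lung Bach1 means were 105, 101 and 119 CPM in WT, Cic-S-KO and Cic-L-KO, and no contrast passed. The nearest was Cic-S-KO against Cic-L-KO (-0.24, adjusted p = 0.0555), which passed with DESeq2 (adjusted p = 0.0342) and without Cic-S-KO replicate 4 or 6 or Cic-L-KO replicate 5.

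**Figure D3:**
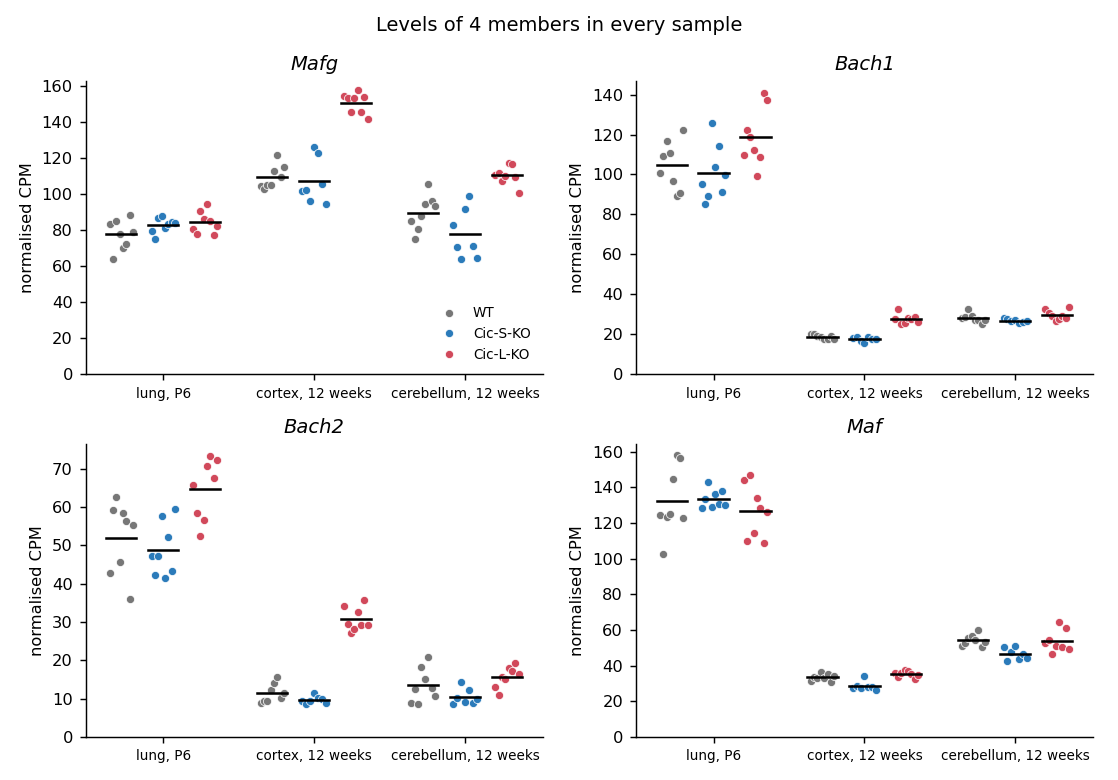
Normalised CPM of Mafg, Bach1, Bach2 and Maf on linear axes that start at 0, with 1 point per sample by organ and genotype and black lines at group means. Mafg, Bach1 and Bach2 of Cic-L-KO cortex stand clear of the WT and Cic-S-KO cortex samples, and Maf is lowest in the Cic-S-KO group of both brain regions.

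Maf was the one member called in short isoform knockouts, and it was lower. In cortex it ran from 30.9 CPM through 33.4 to 36.6 in WT and from 26.4 through 27.9 to 34.0 in Cic-S-KO, and 6 of 7 Cic-S-KO samples were below all WT. The log2FC was -0.23 (SE 0.050, adjusted p = 0.0071), a fold of 0.852. In cerebellum Maf ran from 50.4 through 53.6 to 60.1 CPM in WT and from 42.4 through 46.5 to 50.8 in Cic-S-KO, with 6 of 7 below all WT and a log2FC of -0.22 (SE 0.059, adjusted p = 0.0209). Cic-L-KO cortex, at 32.4 through 35.5 to 37.2 CPM, had a log2FC of 0.07 (SE 0.048, adjusted p = 0.223) against WT, and the contrast of Cic-S-KO with Cic-L-KO gave -0.30 (SE 0.050, adjusted p = 1.42e-05). In lung the Maf means were 132, 134 and 127 CPM in WT, Cic-S-KO and Cic-L-KO, and no contrast passed. Maf is known from some cortical interneurons and from macrophages. The summed level of 5 interneuron markers had a median of 883 CPM in WT cortex and 893 in Cic-S-KO cortex, and that of 7 microglia and macrophage markers 287 and 266 CPM, with no marker of either list called in that contrast. Against Cic-L-KO cortex, where the interneuron sum was 1063 CPM and the microglia and macrophage sum 327 CPM, both lists held lower genes in Cic-S-KO: Pvalb and Sst, and 5 of the 7 microglia and macrophage markers. There 16.5% of all genes were lower. In cerebellum the sums of the interneuron list were 1545 and 1711 CPM in WT and Cic-S-KO, with Gad2, Gad1 and Pvalb higher in Cic-S-KO. Lhx6 of that list was under 1 CPM there, and the cells behind the list in cerebellum were not told apart. The sums of 5 Purkinje cell markers were 9621 and 11264 CPM, with overlap. The granule neuron sums were 4575 and 3704 CPM, with 4 of 5 markers lower. Of all genes 4.34% were higher and 3.89% lower in that contrast. The part of these cell types in the Maf values was not tested.

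Nfe2l2, which encodes the activator NRF2, did not pass in any knockout contrast that was tested. Its lung ran from 116 CPM through 134 to 144 in WT, from 124 through 136 to 172 in Cic-S-KO and from 122 through 140 to 147 in Cic-L-KO. In Cic-L-KO cortex the log2FC was 0.04 (SE 0.086, adjusted p = 0.751), with a 95% interval from -0.14 to 0.21. The nearest to the threshold was the Cic-S-KO cerebellum, at 22.9 through 27.4 to 29.5 CPM against 19.0 through 23.5 to 25.2 in WT, where 5 of 7 samples were above all WT (log2FC 0.19, SE 0.065, adjusted p = 0.065). That value passed without Cic-S-KO replicate 1 (0.22, adjusted p = 0.0319) or replicate 2 (0.23, adjusted p = 0.032), with DESeq2 (adjusted p = 0.0441) and after removal of trends with GC content (adjusted p = 0.045). Between the cortex knockouts Nfe2l2 passed without Cic-S-KO replicate 4 (-0.23, adjusted p = 0.0424). Its Cic-S-KO effect, cortex minus cerebellum, passed without cortex Cic-S-KO replicate 1 (-0.37, adjusted p = 0.0432) or replicate 4 (-0.38, adjusted p = 0.0452). The count of transcripts says nothing of NRF2 protein, which is controlled mainly by degradation.

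Neither Fos-like gene passed in any tested knockout contrast. Fosl1 ran from 5.65 CPM through 7.08 to 7.70 in WT lung and from 5.05 through 5.86 to 6.86 in Cic-S-KO lung (log2FC -0.24, SE 0.11, adjusted p = 0.118). In cerebellum its log2FC was -0.22 (SE 0.092) in Cic-L-KO, as a description. Fosl2 varied widely from library to library, with a coefficient of variation from 16.4% in Cic-L-KO cortex to 56.0% in Cic-S-KO cerebellum. The latter group includes replicate 3, which lay apart at 37.8 CPM with the nearest at 21.8 CPM. In cortex it ran from 51.2 through 87.3 to 134 CPM in WT, from 36.3 through 64.2 to 100 in Cic-S-KO, and from 52.2 through 62.6 to 81.7 in Cic-L-KO. Both log2FC values were -0.40 (SE 0.23 and 0.22, adjusted p = 0.316 and 0.152), with 95% intervals from -0.88 to 0.08 and from -0.86 to 0.06.

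The members' calls were set against those of all genes. In Cic-L-KO cortex 4 of 9 members passed, all higher, where 43.2% of all genes tested passed in either direction and 21.4% were higher, so the count in either direction lies near its background. The median log2FC of the 9 members was 0.07 there and that of all genes 0.011. In Cic-L-KO lung 1 of 9 passed, and was higher, against a background of 4.89% (2.62% higher), with a median of 0.18 for the members and -0.00093 for all genes. In Cic-S-KO, 0 of 9 passed in lung (background 15.7%, member median 0.0089), 1 of 9 in cortex (6.53%, and 3.7% lower, median -0.13) and 1 of 9 in cerebellum (8.23%, and 3.89% lower, median -0.13). The 9 include Maff, whose values against WT cerebellum are descriptions, here and in the short isoform difference between brain regions below. The smallest unadjusted p in Cic-S-KO lung was that of Fosl1, the one member under 0.05 there, and DESeq2 also called none in that lung contrast. Between the knockouts, Cic-S-KO against Cic-L-KO, 2 of 9 passed in lung (12.2%, and 4.85% lower) and 5 of 9 in cortex (33.9%, and 16.5% lower), all of them lower in Cic-S-KO. In Cic-L-KO cerebellum 2 of 9 met the threshold where 21.5% of all genes did, in Cic-S-KO against Cic-L-KO cerebellum 4 of 9 where 12.4% did, and in the difference of Cic-L-KO effects between the brain regions 2 of 9 where 23% did; nothing is read from these 3 counts. A difference of the short isoform effect between the brain regions was called for 0 of 9 members by edgeR (background 4.5%) and by DESeq2, and for 1, Mafg, once cortex and cerebellum were paired by replicate number (0.18, adjusted p = 0.0402). At an unadjusted p under 0.05, Nfe2l2 was the one member of that unpaired contrast, at -0.32 (SE 0.11, adjusted p = 0.0894).

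**Figure D4:**
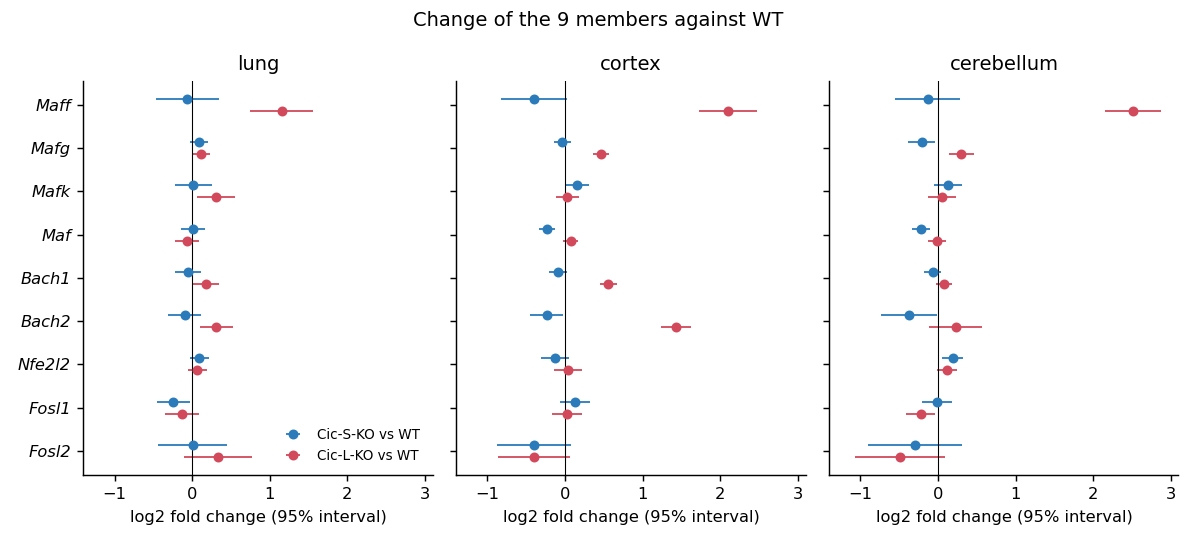
The log2 fold change against WT of the 9 genes in lung, cortex and cerebellum, with bars for the 95% interval, blue for Cic-S-KO and red for Cic-L-KO. Maff stands to the right of 0 in Cic-L-KO of each organ, at 1.15, 2.10 and 2.51, and the cerebellar Cic-L-KO values are those that chose the set.

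The WT samples show how these genes are placed in the unperturbed organs. Per kilobase of exon, Nfe2l2 was the highest member in WT lung at 34.6 ± 2.96 CPM per kilobase (SD, n = 8), clear of the next. Bach1, Maf, Mafk, Maff and Mafg followed between 16.9 and 13.8, and neighbours in that order overlapped. Fosl2, Bach2 and Fosl1 closed it at 8.57, 5.23 and 3.40 and also overlapped stepwise. In cortex Mafg led at 19.5 ± 1.18 without overlap, then Fosl2 at 8.97 ± 2.71, also without overlap, and then Nfe2l2, Maf, Fosl1, Bach1 and Mafk between 4.43 and 2.85 with overlapping neighbours. In cerebellum Mafg led again at 16.0 ± 1.73 without overlap, then Maf, Fosl1 and Nfe2l2 between 6.57 and 6.11, and Bach1 at 4.54. Fosl2, Mafk and Bach2 followed, at 2.27, 2.20 and 1.35, each overlapping the next. Maff was the lowest member in both brain regions, at 0.785 ± 0.264 in cortex, where it overlapped Bach2 at 1.14, and 0.535 ± 0.121 in cerebellum, where it overlapped no other.

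Between WT cortex and WT cerebellum 8 of 9 members met the threshold, a count in which Maff is included only as a description. Of all genes 73.5% did (35.4% higher and 38.2% lower in cortex), so a difference between the regions was the rule. Fosl2 was higher in cortex by a log2FC of 2.06 (SE 0.25, adjusted p = 1.69e-09), and Mafk (0.46) and Mafg (0.37) were also higher there. Maff was at 0.64, a value given as a description because the WT cerebellum libraries helped choose it. Fosl1 (-0.85), Maf (-0.61), Bach1 (-0.50) and Nfe2l2 (-0.38) were lower in cortex, with adjusted p-values up to 2.32e-05 for these 4. Bach2 was the exception, at -0.16 (SE 0.14, adjusted p = 0.311). The SE and p-values here come from a fit that treated cortex and cerebellum libraries as unpaired. When they were paired by replicate number, 8 of 9 members met the threshold, with Maff again 1 of the 9, against 73.8% of all genes.

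The wider pathway was read from lists of genes. Among relatives and regulators of NRF2, Nfe2 (0.53) and Nfe2l3 (0.43, SE 0.14, adjusted p = 0.0312) rose in Cic-S-KO lung, where 9.99% of all genes were higher. None of the listed genes of this family passed in Cic-L-KO lung, where 4.89% of all genes did. In Cic-L-KO cortex, where 21.9% of all genes were lower, Nfe2l1, the ubiquitous relative of NRF2, was lower by a log2FC of -0.09 (SE 0.026, adjusted p = 0.00574). No gene of this family passed with all libraries in Cic-S-KO cortex or cerebellum, where 6.53% and 8.23% of all genes did. In cortex 1 passed without WT replicate 2 or Cic-S-KO replicate 1. In cerebellum 1 passed without WT replicate 1 or Cic-S-KO replicate 1 or 3. Of the AP-1 partners, with 7 tested in lung and 5 in brain, Batf rose in both lung knockouts (0.33, adjusted p = 0.00545 in Cic-S-KO; 0.77, adjusted p = 4.9e-07 in Cic-L-KO). It was the 1 partner called in each, where 9.99% and 2.62% of all genes were higher. BATF is the AP-1 partner of lymphocytes. In Cic-L-KO cortex the JUN family gene Junb (-0.73, SE 0.23, adjusted p = 0.013) and the AP-1 repressor gene Jdp2 (-0.71, SE 0.079, adjusted p = 6.58e-08) fell. The median of the 5 listed genes was -0.50 and that of all genes 0.011. In that contrast 21.9% of all genes fell and 21.4% rose. Without WT replicate 4, 4 of the 5 AP-1 partners fell there, and without WT replicate 3, 1 rose.

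Part of the known NRF2 target genes rose in the lung of short isoform knockouts. Of 21 tested, 9 rose, 12 did not pass and none fell, against 9.99% of all genes higher and 5.73% lower, with a list median of 0.19 and -0.0010 over all genes. Slc7a11, which imports cystine for glutathione synthesis, ran from 0.628 CPM through 1.69 to 2.64 in WT lung, from 3.61 through 6.89 to 32.0 in Cic-S-KO and from 0.796 through 1.87 to 14.9 in Cic-L-KO. All Cic-S-KO lungs were above all WT, with a log2FC of 2.61 (SE 0.56, adjusted p = 0.00355). Gsr, the glutathione reductase gene (0.49, SE 0.078, adjusted p = 0.000145), and Gsta4, a glutathione transferase gene (0.39, SE 0.061, adjusted p = 0.00014), also rose. So did Me1 (0.29), a source of NADPH, and Taldo1 (0.23). Leaving out each library in turn left 7 to 9 higher. Of 8 heme and iron genes 6 rose there, led by the ferritin chains Ftl1 (0.60, SE 0.11, adjusted p = 0.00103) and Fth1 (0.40, SE 0.083, adjusted p = 0.00208) and Hmox1 (0.41, SE 0.11, adjusted p = 0.00871), with a list median of 0.29. The biliverdin reductase genes Blvra (0.21) and Blvrb (0.37) were among them, and 4 to 6 rose with each library left out, 4 without WT replicate 2.

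Markers of several cell types were also called in these lung contrasts. The sum of 5 neutrophil markers had a median of 149 CPM in Cic-S-KO lung (44.5 to 210), 45.1 in WT (21.1 to 100.2) and 75.9 in Cic-L-KO (27.2 to 112), and all 5 were called higher in Cic-S-KO. The sum of 7 macrophage markers was 278 CPM in Cic-S-KO (253 to 414), 182 in WT (156 to 228) and 236 in Cic-L-KO (223 to 293), with 7 of 7 called in Cic-S-KO and 4 of 7 in Cic-L-KO lung. The 5 B cell markers had sums of 66.3, 43.8 and 48.4 CPM in Cic-S-KO, WT and Cic-L-KO lung. Those of 5 T cell markers had medians of 15.9, 12.3 and 17.0 CPM in the same order. The sum of 5 red blood cell markers varied widely, and the groups overlapped. Its median was 13231 CPM in Cic-S-KO (6786 to 23239), 9387 in WT (6123 to 16204) and 9922 in Cic-L-KO (4510 to 21674). Of 3 airway epithelium markers Foxj1 and Scgb3a2 were higher in Cic-S-KO lung, with sums of 4540 CPM (3966 to 5880) against 3835 in WT (2937 to 4229), and the endothelial genes Kdr and Cdh5 were lower. In Cic-L-KO lung 3 of 5 alveolar type 1 markers, Hopx, Aqp5 and Ager, were higher, and their sums, 2178 to 2541 CPM against 1786 to 2130 in WT, did not overlap. In these bulk samples more cells of a type and more RNA per cell cannot be told apart, and the part of these cells in the values of Nfe2, Nfe2l3, Batf, Slc7a11, ferritin and lung Maff was not tested. In Cic-L-KO lung, 2 of 21 NRF2 targets passed, Gstm1 (0.25, adjusted p = 0.0167) and Gsta4 (0.21, adjusted p = 0.0417), both higher, against 2.62% of all genes, and the list median was 0.10. Of the 8 heme and iron genes Blvra alone rose in Cic-L-KO lung (0.19, adjusted p = 0.0492). These counts were unstable: without WT replicate 1, and without each of several other single libraries, 1 NRF2 target and 0 heme genes passed.

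In the cortex of long isoform knockouts, more of the listed genes fell than rose. Of 21 NRF2 targets 10 fell and 3 rose, with a median of -0.11, where 21.9% of all genes fell and 21.4% rose. Srxn1 (-0.24, SE 0.032, adjusted p = 5.57e-07), Cbr1 (-0.30, SE 0.048, adjusted p = 9.44e-06), Sqstm1 (-0.19) and Gsta4 (-0.31) fell, and Abcc1, a glutathione conjugate exporter gene, rose (0.24). Srxn1, which repairs peroxiredoxins, ran from 89.8 through 94.8 to 98.6 CPM in WT cortex and from 76.5 through 80.9 to 84.4 in Cic-L-KO cortex, with no overlap. Of 8 heme and iron genes 4 fell (Blvrb -0.41, Slc48a1 -0.10, Hmox1 -0.37, Fth1 -0.14) and 2 rose, Blvra (0.18) among them. Hmox1, the textbook target of BACH1, ran from 3.33 through 4.05 to 6.14 CPM in WT cortex and from 2.68 through 3.23 to 4.40 in Cic-L-KO cortex, with overlap (adjusted p = 0.0294). The count that fell went from 4 to 2 without WT replicate 1 or 8 or Cic-L-KO replicate 1 or 5, and the count that rose from 2 to 1 without WT replicate 3 or 8 or Cic-L-KO replicate 1, 5 or 6.

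The ERK early genes were called in both directions in Cic-L-KO cortex. Of 11, Etv4 (1.09, adjusted p = 5.79e-12), Myc (0.90, adjusted p = 8.48e-10) and Etv5 (0.48) were among 4 that rose, and Ier3 (-0.48) and Egr1 (-0.89, adjusted p = 0.000667) among 3 that fell, where 21.4% of all genes rose and 21.9% fell, with a list median of 0.12. Egr1, an activity-induced gene of neurons, ran from 239 through 493 to 710 CPM in WT cortex and from 200 through 248 to 307 in Cic-L-KO. Beside these changes, the 4 excitatory neuron markers summed to a median of 4261 CPM in Cic-L-KO cortex (4071 to 4646) and 6024 in WT (5420 to 6402), 5 endothelial markers to 184 and 137 CPM, and 7 microglia and macrophage markers to 327 and 287 CPM. The cortex groups did not overlap in the excitatory sum. The interneuron sums, 990 to 1131 CPM in Cic-L-KO and 840 to 935 in WT, did not overlap either. The sum of 4 choroid plexus markers varied widely and overlapped. Its median was 391 CPM in Cic-L-KO cortex (12.6 to 1244), 25.0 in WT (18.9 to 572) and 17.2 in Cic-S-KO (7.90 to 597). Slc17a7, Camk2a and Tbr1 were called lower, and Kdr, Flt1, Cldn5, the interneuron genes Pvalb and Sst and the astrocyte genes Aldh1l1 and Gja1 higher, and the part of this in the cortical Bach, Mafg and target values was not tested. In Cic-L-KO lung 2 of the 11 rose against 2.62% of all genes, Dusp4 (0.45, adjusted p = 0.00311) and Etv4 (0.40, adjusted p = 0.00792), and in Cic-S-KO lung Etv4 rose (0.74, adjusted p = 1.26e-05).

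In the Cic-S-KO brain few listed genes passed. In cortex, where 2.83% of all genes were higher, these were Gstp1 (0.32, adjusted p = 5.6e-05) and Tfrc, the transferrin receptor gene (0.34, adjusted p = 0.000127), and the NRF2 list median was 0.00054. In cerebellum 4 of 21 NRF2 targets rose, Gstm1 (0.28, adjusted p = 0.000726), Me1 (0.24), Prdx1 (0.18) and Gsta4 (0.24), against 4.34% of all genes higher, and Ier3 rose (0.30, adjusted p = 0.0302), a call lost without WT replicate 3, 5 or 7 or Cic-S-KO replicate 6 or 7. In Cic-L-KO cerebellum, given without a test, Srxn1 was at 0.21 (SE 0.039), Slc7a11 at 0.41 (SE 0.10), Hmox1 at 0.28 (SE 0.092) and Nfe2l1 at 0.21 (SE 0.039). These genes are named for their small p there and do not stand for their lists. Values were above 0 for 13 of 21 NRF2 targets (median 0.048) and 5 of 8 heme and iron genes (median 0.095). They were above 0 for 0 of 5 AP-1 partners (median -0.16), and the median over all genes was 0.0038. Among the ERK early genes 9 of 11 were above 0 (median 0.24), and among relatives and regulators of NRF2 5 of 6 (median 0.12). The cerebellar endothelial marker sum had a median of 163 CPM in Cic-L-KO (148 to 184) and 104 in WT (95.8 to 126), and that of granule neuron markers 4146 and 4575 CPM.

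**Figure D5:**
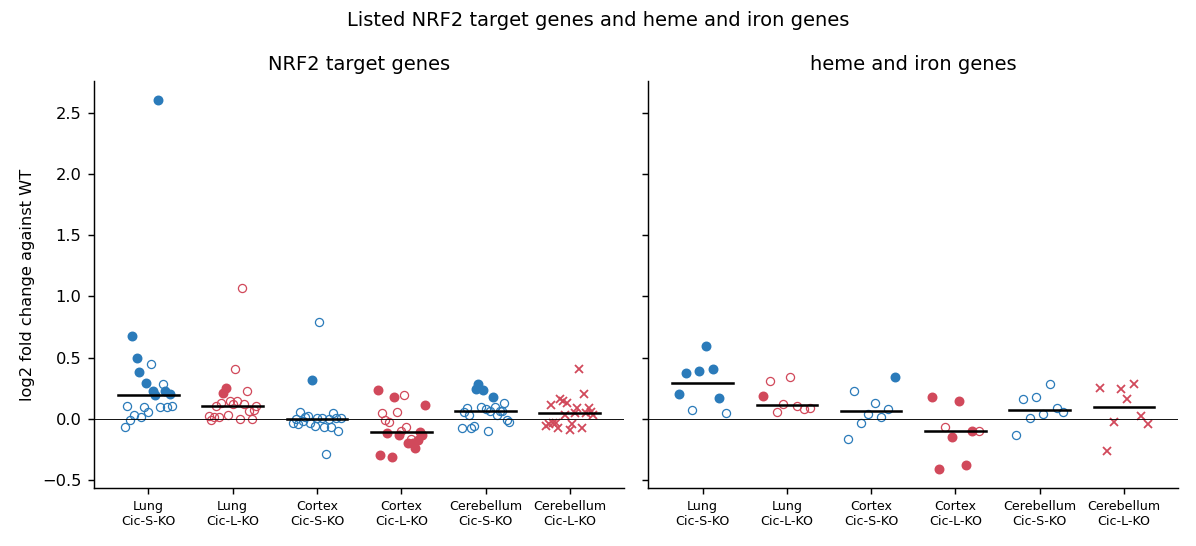
The log2 fold change against WT of the listed NRF2 target genes (left) and heme and iron genes (right) in 6 contrasts, with 1 point per gene, filled where the adjusted p was under 0.05, open where it was not, and crosses for Cic-L-KO cerebellum, which is shown without a test; black lines are medians. The lung Cic-S-KO points lie mostly above 0, with medians of 0.19 and 0.29, and the cortex Cic-L-KO points mostly below it, with medians of -0.11 and -0.097.

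Maff, Mafk, Bach1 and Fosl2 varied together among lung samples of the same genotype. Over the 24 lung samples, after each group's mean was removed, Pearson's r was 0.85 between Maff and Mafk, 0.85 between Mafk and Fosl2, 0.83 between Bach1 and Fosl2, 0.77 between Mafk and Bach1, 0.72 between Maff and Fosl2 and 0.69 between Maff and Bach1. Maf ran against them, at -0.61 with Maff, -0.65 with Mafk and -0.67 with Fosl2. Mafg, Bach2, Nfe2l2 and Fosl1 had no lung pair beyond 0.39 in size. These points share their libraries and normalisation. Lung libraries of the same number but different genotype also tended to deviate together, with a mean r of 0.28 against -0.040 for other numbers. The 24 points are therefore not fully independent. In cortex (23 samples) the highest values were 0.65 for Mafg with Bach2 and 0.64 for Maff with Fosl1, and in cerebellum (23 samples) Maff and Fosl1 were at -0.61, the opposite sign.

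The genes most like Maff over the 70 samples, by Pearson's r of log2 CPM with each organ's mean removed, were sought among 10956 genes. They were Hsd17b12 (0.91), a fatty acid elongation enzyme gene, Pafah1b3 (0.87), Wdr1 (0.85), an actin disassembly factor gene, Dennd2a (0.84) and Zswim4 (0.84). Pafah1b3 lies beside Cic, the altered locus, and whether that bears on its values was not tested. The most unlike were Crebrf (-0.81), Cntln (-0.79), Tcf19 (-0.78), Cryl1 (-0.78) and Ptpn3 (-0.76). Genotype differences were left in r, so a gene that rises in Cic-L-KO as Maff does places high by construction. The Cic-L-KO cerebellum libraries that chose the set were included. The values of r, the places and the log2FC values that follow are descriptions and carry no test. Among the members, Mafg stood at 0.79 and place 16, Bach2 at 0.73 and place 50 and Bach1 at 0.67 and place 114, and the others lay between -0.25 and 0.22. Hsd17b12 had log2FC values in Cic-L-KO of 0.21 (SE 0.052) in lung, 0.60 (SE 0.036) in cortex and 0.63 (SE 0.045) in cerebellum, and of -0.02, -0.08 and -0.02 in Cic-S-KO, side by side with 1.15, 2.10 and 2.51 for Maff in Cic-L-KO.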

How the data were processed

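RNA from flash-frozen tissue was polyA-selected and sequenced, per the labels' protocols. The authors deposited 1 table of raw read counts per gene, aligned with STAR 2.7 to GRCm38.p6, per the submitters' processing notes; the counter, its strand setting and the annotation release are not given in the sources used here. Of 50789 identifiers, 50725 were matched to GENCODE M21 symbols. Genes of chromosome 1, among them Cul3, Atf3, Batf3, Gsta3, Ephx1, Aox1, Slc40a1 and Abcb6, were not analysed here. The result of 1 listed gene is not reported here.

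Counts were tested with edgeR 4.0.16 in R 4.3.3 (filterByExpr, TMM, robust quasi-likelihood fit, Benjamini-Hochberg adjustment over all genes tested), in 1 fit per organ with all 3 genotypes, and in 1 fit of both brain regions for differences between them. The fits were tested on simulated data in which 200 genes were changed by 1 on the log2 scale. For Cic-S-KO lung 96.5% of them were recovered, and 4.93% of calls were false. For the Cic-S-KO effect between regions these were 88% and 6.38%. Smaller changes, and changes of more genes, were not simulated. Alternatives were DESeq2 1.42.0, other normalisation and filters, GC trends, and each library left out; for the lists, leaving out libraries, and a block by library number, were chosen after seeing the data. Members, lists and tests were chosen with earlier results of these data known. Named list genes are at most the 5 of smallest p per list and contrast among those that passed; genes like Maff are the 5 highest and 5 lowest in r. P-values measure only the spread between these samples, which may in part be technical, since the labels do not tie each library to a separate mouse, and no 2 libraries of a group were identical. Cortex and cerebellum libraries of the same genotype and number deviated together in 23 of 23 pairs (r from 0.14 to 0.42, mean 0.29, and -0.043 for other numbers), and 15 of the 23 correlated best with their own number. The numbers were therefore taken to pair the brain regions, which the labels do not state. Marker sums follow lists for microglia and macrophages, neutrophils, B cells, interneurons, endothelial cells and astrocytes. Lists were also used for T cells, red blood cells, excitatory and granule neurons, Purkinje cells, choroid plexus, airway epithelium and alveolar type 1 and type 2 cells.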

Additional observations from a re-analysis of the deposited data

Results flagged for a closer look

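In 3 of 81 combinations of a gene and a group, 1 sample lay apart from the rest, where chance alone gives about 4.05. All 3 were in Cic-S-KO brain. Maff in Cic-S-KO cerebellum replicate 5 was the highest of its group at 2.56 CPM, with the nearest sample at 1.31 CPM. Maf in Cic-S-KO cortex replicate 4 was at 34.0 CPM, with the nearest at 28.6 CPM. Fosl2 in Cic-S-KO cerebellum replicate 3 was at 37.8 CPM, with the nearest at 21.8 CPM.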

How the results depend on the processing

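Over 1080 recomputed log2 fold changes of members under other settings, 1039 kept direction and side of the threshold, 15 lost it, 11 gained it and 15 turned sign; with each library left out, 1887 of 1962 kept both, 2 lost the call, 13 gained it and 60 turned sign. All sign changes were of values that were not called, Fosl2 in cerebellum between the knockouts (0.20) among them. The called rises of Maff in lung and cortex and of Bach1 and Bach2 in cortex held under every alternative run; that of Mafg in cortex was lost only to a fold requirement of 0.5 on the log2 scale.

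Called members, with 1 for Cic-L-KO lung, became 2 with DESeq2 and 2 with a replicate block (Mafk at 0.32, adjusted p = 0.0348). For lung between the knockouts the count of 2 became 3 with DESeq2 (Bach1) and 3 with the block (Mafk at -0.30, adjusted p = 0.0287). For Cic-S-KO cerebellum the count of 1 became 2 with DESeq2, 2 with GC trends removed and 0 with the replicate block (Maf, adjusted p = 0.0571). At an absolute log2FC of at least 0.5 the counts were 1 for lung between the knockouts, 0 for Cic-S-KO cortex, 3 for Cic-L-KO cortex, 3 for cortex Cic-S-KO against Cic-L-KO, 0 for Cic-S-KO cerebellum, 1 for Cic-L-KO cerebellum, 3 for cerebellum between the knockouts, 1 for the Cic-L-KO effect between regions and 4 for WT cortex against cerebellum. With each library left out in turn the counts ran from 1 to 2 for Cic-L-KO lung (2 without WT replicate 3), from 2 to 4 for lung between the knockouts (4 without Cic-S-KO replicate 4), from 1 to 2 for Cic-S-KO cerebellum (2 without replicate 1, 2 or 5) and from 0 to 1 for the Cic-S-KO effect between regions (1 without cortex Cic-S-KO replicate 1 or 4).

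Between genotypes the replicate number was treated as only a number, since the labels tie it to nothing and not every pair correlated above 0.1: 21 of 24 same-numbered lung pairs did, 16 of 22 in cortex and 15 of 22 in cerebellum, with mean r of 0.28, 0.19 and 0.11 against -0.040, -0.028 and -0.016 for other numbers, and 11, 4 and 4 correlated best with their own number. The replicate block there moved calls over all genes from 817 to 1285 in Cic-L-KO lung, from 1108 to 627 in Cic-S-KO cortex and from 1370 to 591 in Cic-S-KO cerebellum. The Cic-S-KO brain titles run on where the library names skip a number, so their numbers are shifted from replicate 2 on. With the library number as the block, chosen after seeing the data, 17 of 22 cortex and 18 of 22 cerebellum pairs correlated above 0.1 (mean r 0.22 in both), calls over all genes were 1121 in Cic-S-KO cortex and 1001 in Cic-S-KO cerebellum, and the members called in Cic-S-KO cerebellum were 2, with Mafg at -0.23 (adjusted p = 0.0321) beside Maf. In the pairing of cortex with cerebellum, the block took the members called for the Cic-S-KO effect from 0 to 1 (Mafg, adjusted p = 0.0402), that for the Cic-L-KO effect from 2 to 3, and left that for the WT regions at 8. Calls over all genes in Cic-S-KO cortex were also 732 without a low-count filter, 654 with only the compared groups and 399 with GC trends removed, and for the Cic-S-KO effect between regions 446 without the filter against 812. The fold requirement took them to 959, 200, 839, 147, 1931, 1617, 176, 505, 423, 189, 1461 and 8180 in the contrasts in the order lung, cortex and cerebellum (Cic-S-KO, Cic-L-KO, Cic-S-KO against Cic-L-KO), Cic-S-KO and Cic-L-KO effects between regions, and WT regions.

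Signs turned with GC trends removed for Mafk (-0.042 for the short isoform lung knockout, -0.025 in Cic-L-KO cortex, -0.00043 in Cic-L-KO cerebellum, -0.0046 in the Cic-S-KO effect between regions), Fosl1 (-0.057 in Cic-L-KO cortex), Fosl2 (-0.019 in Cic-S-KO lung, 0.021 in cortex between knockouts) and Maf (0.0021 in the Cic-S-KO effect between regions). Without a low-count filter Fosl2 turned to -0.0025 in Cic-S-KO lung and 0.0090 in cortex between knockouts, where RLE normalisation gave 0.0032 and DESeq2 0.0048. With a mean of at least 50 counts Maf turned to 0.00020 and with only the compared groups to 0.0021 in the Cic-S-KO effect between regions, and Mafk to 0.0047 in the Cic-L-KO effect between regions. The cause was not tested.

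With each library left out, values that crossed 0 ran, in Cic-S-KO lung, from -0.16 to 0.00999 for Maff, -0.065 to 0.055 for Mafk, -0.038 to 0.049 for Maf and -0.10 to 0.13 for Fosl2, and for Nfe2l2 in lung between knockouts from -0.025 to 0.044. In Cic-L-KO cortex they ran from -0.012 to 0.072 for Mafk, -0.0056 to 0.077 for Nfe2l2 and -0.0091 to 0.078 for Fosl1, and for Fosl2 between the cortex knockouts from -0.14 to 0.10. In cerebellum they ran from -0.098 to 0.043 for Fosl1 in Cic-S-KO, -0.056 to 0.014 for Maf in Cic-L-KO and -0.098 to 0.30 for Fosl2 between knockouts. In the Cic-S-KO effect between regions they ran from -0.015 to 0.078 for Mafk, -0.060 to 0.0094 for Maf, -0.057 to 0.0027 for Bach1 and -0.24 to 0.19 for Fosl2, and in the Cic-L-KO effect from -0.070 to 0.023 for Mafk. In brain, counts of 16 to 83 per library in WT and Cic-S-KO limit the precision of Maff.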
